A study of Mus musculus with 12 samples.

Results

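Renin-angiotensin system genes are described here in whole mouse kidney: Ren1, Agt, Ace, Agtr1a, Agtr1b, Enpep, Mme and Lnpep, which were taken by name from the deposited count table. They are 8 of its 46403 genes, and all 8 were among the 23742 genes kept after removal of genes with few counts. The Grhl2KO_Myc group (n = 4) is labelled as Grhl2 knockout together with Myc overexpression and came from crosses that joined HoxB7-Cre and floxed Grhl2 to R26StopFLMYC, a MYC transgene at Rosa26 that stays silent until Cre removes a stop cassette. HoxB7-Cre is active in the collecting duct and the ureteric bud it derives from, and many cells of a whole kidney lie outside that lineage. The Myc group (n = 3) is labelled as Myc overexpression, its identifiers carry the letters HET, and neither its cross nor its Grhl2 genotype is stated in the labels. The wildtype group (n = 5) carried R26StopFLMYC and Grhl2 flox/flox, and the labels name no Cre for it. All mice were untreated, their age is not stated in the labels, and kidneys with the knockout alone were not analysed here. Libraries were made from polyadenylated RNA of whole right kidneys, and as nothing in the labels ties the replicates to different mice, p-values measure only how these samples spread.

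Renin, made by juxtaglomerular cells of the afferent arteriole, cuts angiotensinogen to angiotensin I, and angiotensin-converting enzyme trims this to angiotensin II. Angiotensin II acts through the AT1 receptors on vessels, glomeruli and tubules, where it raises vascular tone and sodium uptake and lowers renin release. Peptidases on the brush border of the proximal tubule, aminopeptidase A and neprilysin among them, shorten or inactivate the peptides.

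Total counts lay between 75187006 and 108164810 in Grhl2KO_Myc, between 70608817 and 101043826 in Myc and between 52973520 and 98713157 in wildtype libraries. Grhl2, the targeted gene, ranged over 18.5 to 24.3 CPM in Grhl2KO_Myc, 28.2 to 33.0 CPM in Myc and 23.9 to 29.3 CPM in wildtype, where CPM is a gene's count divided by the TMM-scaled size of its library. Kidney markers were measured in every library: 20 proximal tubule, 20 podocyte and 20 endothelial markers all had counts in each of the 12. Grhl2KO_Myc libraries 3 and 4 and wildtype library 4 stood apart, with 20 markers of proximal tubule segments S1 and S2 summing to between 1912.2 and 2070.0 CPM, against 3410.3 to 6448.5 CPM in the other 9 libraries. Markers of segment S3 (14 genes) summed to 402.0 to 703.7 CPM in the same 3 libraries and to 1164.8 to 1537.6 CPM in the other 9. The split was not confined to the proximal tubule. Markers of the thick ascending limb (10 genes) summed to 923.8 to 1002.1 CPM in the 3 and to 1177.2 to 1657.6 CPM in the other 9. In whole tissue, fewer cells of a type and less RNA per cell cannot be told apart.

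Promoter windows of 300 bases, 250 before and 50 from the RefSeq start (GRCm38.p6), are shown for renin and angiotensinogen, the enzyme and the substrate at the head of the cascade, with matches to the TATA box (TATAAA) and to a Hox-Pbx motif (ATNAATCA) in capitals. Ren1 is at chr1:133350424-133350723 on the plus strand and Agt at chr8:124569657-124569956 on the minus strand, each read 5′ to 3′ along the gene.
Ren1: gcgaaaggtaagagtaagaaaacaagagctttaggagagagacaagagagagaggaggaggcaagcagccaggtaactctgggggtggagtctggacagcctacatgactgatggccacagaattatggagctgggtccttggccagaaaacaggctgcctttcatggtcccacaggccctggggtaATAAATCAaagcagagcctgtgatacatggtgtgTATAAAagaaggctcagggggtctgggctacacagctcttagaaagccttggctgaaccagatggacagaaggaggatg
Agt: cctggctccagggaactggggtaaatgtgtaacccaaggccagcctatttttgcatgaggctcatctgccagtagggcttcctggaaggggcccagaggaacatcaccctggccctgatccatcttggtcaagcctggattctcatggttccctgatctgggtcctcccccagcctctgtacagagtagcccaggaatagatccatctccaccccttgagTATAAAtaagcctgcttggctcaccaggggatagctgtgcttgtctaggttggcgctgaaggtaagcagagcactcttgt
In Ren1 the Hox-Pbx match ATAAATCA lay 63 to 56 bases before the start and the TATA box 29 to 24 bases before it, and in Agt the TATA box lay 30 to 25 bases before the start. The RefSeq table holds 7 of the 8 genes with 10 windows, and Agtr1a has no entry in it. Among those 7, a window of Ren1, Agt, Ace (1 of its 2), Agtr1b and Enpep held TATAAA. So did 4234 of the 27025 genes in the table, or 13.62% of its 32851 windows. Ren1 alone held ATNAATCA, as did 1010 of those genes, or 3.22% of all windows. Neither the E-box bound by Myc (CACGTG, 7.15% of all windows) nor a grainyhead motif (AACCNGTT, 2.09%) was in any of the 10, with both strands searched for each motif. A match describes letters, not a binding site, and other motifs of the same windows were not searched.

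Per kilobase of exon the 8 genes kept 1 order in the 3 group means. Ren1 was highest at 94.6 ± 17.6 CPM per kb in Grhl2KO_Myc, 112 ± 36.8 in Myc and 129 ± 25.9 in wildtype (SD, n = 4, 3 and 5). Enpep, aminopeptidase A, came next at 44.8 ± 4.82, 55.7 ± 5.51 and 59.3 ± 14.0 CPM per kb in the same groups. Ace, Mme and Agtr1a followed with means of 19.2, 16.3 and 12.8 CPM per kb in Grhl2KO_Myc, 29.4, 21.4 and 13.7 in Myc and 31.2, 21.5 and 16.0 in wildtype. Library ranges of Ace and Mme, and of Mme and Agtr1a, overlapped in Grhl2KO_Myc and in wildtype but not in Myc, and those of Enpep and Ace overlapped in wildtype. Agt, whose main source in the body is the liver, was at 6.92 CPM per kb in Grhl2KO_Myc, 5.90 in Myc and 6.57 in wildtype. Lnpep (0.803, 0.936 and 0.871 CPM per kb) and Agtr1b (0.414, 0.582 and 0.670 CPM per kb) were lowest, and their ranges overlapped in wildtype only. The deposited exon width of Lnpep (5181 bases) is 36.6% of its merged exons in GENCODE M21 and that of Agtr1a (2467 bases) is 88.5%, while the other 6 widths equal the annotation, so the place of Lnpep depends on which exons were counted. Among receptors, Agtr1a was at about the level of Agtr2, the AT2 receptor, which reached 14.3 CPM per kb in Grhl2KO_Myc, 12.5 in Myc and 14.3 in wildtype, with overlapping library ranges in each group.

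**Figure D1:**
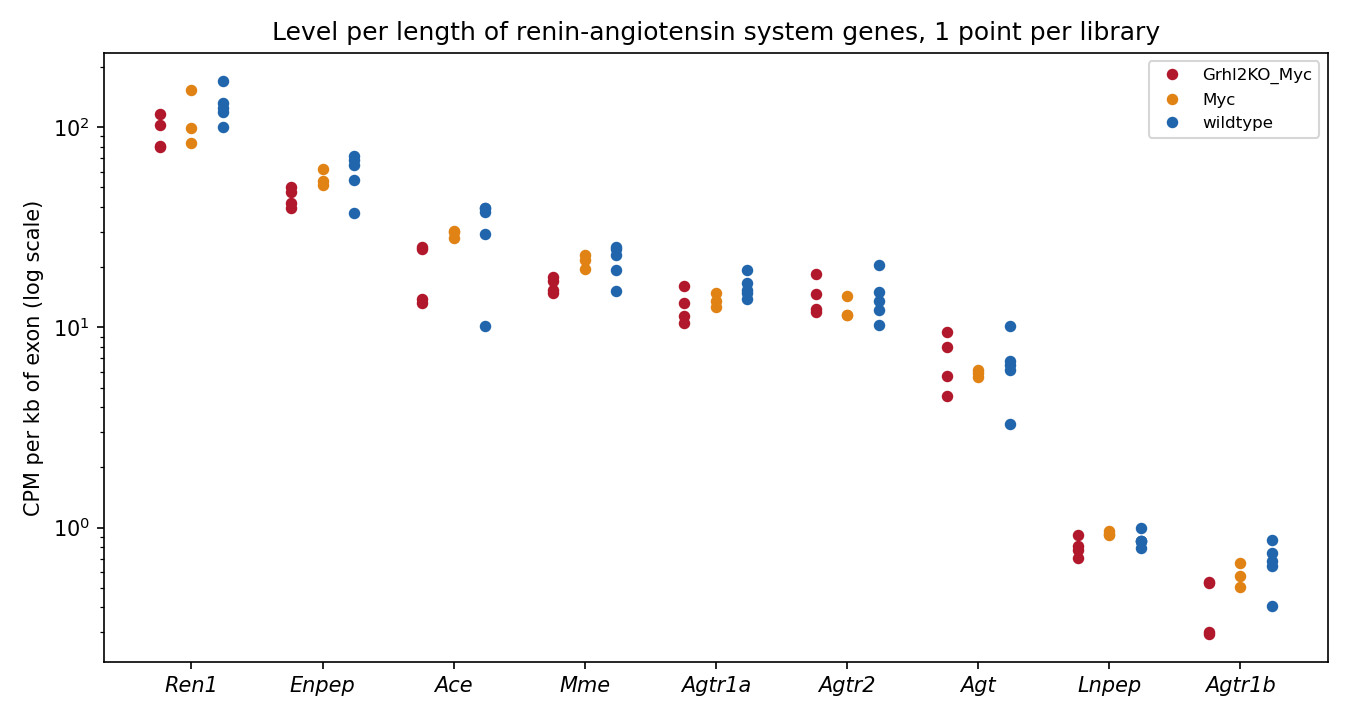
Level per length of the 8 genes with Agtr2, as CPM per kb of exon on a log axis, 1 point per library and 3 colours for Grhl2KO_Myc, Myc and wildtype. Ren1 lies at the top in each group and Agtr1b at the bottom, with group means of 94.6 and 0.414 CPM per kb in Grhl2KO_Myc.

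Between Grhl2KO_Myc and wildtype kidneys, which differ in Cre, in Grhl2 and in the expression of MYC together, none of the 8 genes passed the threshold. Of the 8 genes 0 were called at an adjusted p under 0.05 (edgeR quasi-likelihood test, Benjamini-Hochberg over 23742 genes), where 6.67% of all genes were called. A log2 fold change below 0 was found in 7 of the 8, against 51.5% of all genes, with a median of -0.40 over the 8 and -0.01 over all genes. At an unadjusted p under 0.05, 5 of the 8 were lower (Ren1, Agtr1a, Agtr1b, Enpep and Mme), where 9.91% of all genes were. DESeq2 called 1 of the 8 lower (Mme), where it called 5.1% of all genes lower, and limma-voom called 0. For 0 of the 8 were the libraries of the 2 groups fully separated, against 9.47% of all genes.

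Ren1 (ENSMUSG00000070645.5, chromosome 1, 133350510 to 133360325, plus strand, GENCODE M21 on mm10) encodes renin. It was at 169, 192, 134 and 131 CPM in Grhl2KO_Myc libraries, at 138, 165 and 255 CPM in those of Myc and at 166, 218, 207, 198 and 283 CPM in those of wildtype, here and below in the order of their replicate numbers. Grhl2KO_Myc libraries 3 and 4 were the lowest of the 12 and wildtype 5 the highest, and all 3 groups overlapped. The log2 fold change of Grhl2KO_Myc over wildtype was -0.45 (SE 0.19, 95% interval -0.87 to -0.03, edgeR adjusted p = 0.191). Against Myc it was -0.25 (SE 0.22, edgeR adjusted p = 0.658), a value that turned to 0.0426 without Myc 3. The Y-linked gene Ddx3y was at 62.8 to 81.2 CPM in Grhl2KO_Myc 1 and 4, Myc 3 and wildtype 5 and at most 1.33 CPM in the other 8 libraries. Of those 8, Grhl2KO_Myc 3 had little Xist as well (0.213 CPM). Ren1 was highest of its group in Myc 3 and wildtype 5, while in Grhl2KO_Myc the lowest value was in library 4, with Ddx3y, and the highest in library 2, without it. A term for the 4 libraries with Ddx3y gave Ren1 a log2 difference of 0.33 (SE 0.15, edgeR adjusted p = 0.957), where 0.0211% of genes were called, and with it the log2 fold change of Grhl2KO_Myc over wildtype was -0.52 (adjusted p = 0.117). The mouse paralogue Ren2 has no value here, and if a strain carries it, its reads may be split with Ren1.

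Agt (ENSMUSG00000031980.9, chromosome 8, 124556534 to 124569706, minus strand) encodes angiotensinogen, the substrate of renin. It was at 17.9, 15.1, 10.8 and 8.58 CPM in Grhl2KO_Myc, at 11.2, 11.6 and 10.7 CPM in Myc and at 12.2, 11.6, 19.2, 6.22 and 12.9 CPM in wildtype libraries. Wildtype libraries 3 and 4 held both the highest and the lowest value of the 12, and the 3 Myc libraries lay close together between them. Agt was the 1 gene of the 8 whose log2 fold change over wildtype was above 0, at 0.07 (SE 0.27, 95% interval -0.52 to 0.66, edgeR adjusted p = 0.908), and it was 0.23 over Myc (adjusted p = 0.789). The 8 hepatocyte markers summed to 497.6 CPM in wildtype 3 and to between 53.5 and 148.3 CPM in the other 11 libraries, and Alb, serum albumin, was at 187 CPM in wildtype 3, 30.6 CPM in wildtype 4 and at most 3.39 CPM elsewhere. Their part in the Agt value of wildtype 3 was not tested.

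Ace (ENSMUSG00000020681.14, chromosome 11, 105967945 to 105989964, plus strand) encodes angiotensin-converting enzyme, which sits on endothelium and on the tubular brush border. It was at 130, 134, 69.7 and 73.2 CPM in Grhl2KO_Myc, at 147, 159 and 160 CPM in Myc and at 155, 208, 200, 53.4 and 208 CPM in wildtype libraries. Every Grhl2KO_Myc library was below every Myc library, while wildtype 4 lay below all 4 Grhl2KO_Myc libraries and the other 4 wildtype libraries above them. Mean levels were 102 ± 34.9 CPM in Grhl2KO_Myc, 155 ± 7.17 CPM in Myc and 165 ± 66.0 CPM in wildtype (SD), a log2 fold change over wildtype of -0.70 (SE 0.34, 95% interval -1.43 to 0.03, edgeR adjusted p = 0.25). The antisense gene Gm11651 shares 295 exon bases with Ace, and the kit does not mark strand, so their reads cannot be told apart there.

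Enpep (ENSMUSG00000028024.14, chromosome 3, 129269175 to 129332720, minus strand) encodes aminopeptidase A, which turns angiotensin II to angiotensin III. It was at 223, 236, 187 and 198 CPM in Grhl2KO_Myc, at 242, 253 and 291 CPM in Myc and at 256, 306, 322, 175 and 337 CPM in wildtype libraries. As for Ace, all Grhl2KO_Myc libraries were below all Myc libraries, and wildtype 4 was the lowest of the 12. The log2 fold change was -0.40 over wildtype (SE 0.16, 95% interval -0.75 to -0.06, edgeR adjusted p = 0.161) and -0.31 over Myc (adjusted p = 0.491).

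Mme (ENSMUSG00000027820.12, chromosome 3, 63241537 to 63386030, plus strand) encodes neprilysin, which forms angiotensin 1-7 and degrades natriuretic peptides. It was at 197, 207, 178 and 171 CPM in Grhl2KO_Myc, at 226, 264 and 251 CPM in Myc and at 223, 266, 291, 175 and 286 CPM in wildtype libraries. All Grhl2KO_Myc libraries lay below all Myc libraries and below 4 of 5 wildtype libraries. Of the 8 genes it had the smallest adjusted p over wildtype, with a log2 fold change of -0.40 (SE 0.13, 95% interval -0.68 to -0.11, edgeR adjusted p = 0.0963), and over Myc the value was -0.39 (SE 0.15, adjusted p = 0.274).

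Agtr1a (ENSMUSG00000049115.15, chromosome 13, 30336441 to 30382867, plus strand) encodes the main AT1 receptor of the mouse kidney. It was at 32.7, 39.7, 26.0 and 28.0 CPM in Grhl2KO_Myc, at 33.5, 31.0 and 36.8 CPM in Myc and at 34.1, 41.0, 47.8, 36.8 and 38.1 CPM in wildtype libraries. Grhl2KO_Myc 2 lay within the wildtype range and the other 3 Grhl2KO_Myc libraries below it. The log2 fold change over wildtype was -0.32 (SE 0.13, 95% interval -0.60 to -0.05, edgeR adjusted p = 0.151), and without Grhl2KO_Myc 2 it was -0.45 and was called (adjusted p = 0.0433, where 1.91% of genes were called lower).

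Agtr1b (ENSMUSG00000054988.9, chromosome 3, 20314473 to 20367177, minus strand) encodes the second AT1 receptor of rodents, best known from the adrenal and pituitary. It was at 1.15, 1.13, 0.630 and 0.648 CPM in Grhl2KO_Myc, at 1.43, 1.09 and 1.22 CPM in Myc and at 1.87, 1.60, 1.46, 0.875 and 1.38 CPM in wildtype libraries. Grhl2KO_Myc 3 and 4 and wildtype 4 were the 3 lowest libraries. The log2 fold change over wildtype was -0.70 (SE 0.25, 95% interval -1.24 to -0.16, edgeR adjusted p = 0.119). Its annotated transcripts share 33 stretches of 50 bases with those of Agtr1a (1.54% of the stretches in Agtr1b and 1.13% in Agtr1a), and the labels do not state how reads that match both were counted.

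Lnpep (ENSMUSG00000023845.7, chromosome 17, 17521410 to 17625050, minus strand) encodes the insulin-regulated aminopeptidase, which binds angiotensin IV. It was at 4.76, 3.66, 4.18 and 4.03 CPM in Grhl2KO_Myc, at 4.75, 4.79 and 5.00 CPM in Myc and at 4.46, 4.11, 4.43, 4.43 and 5.15 CPM in wildtype libraries. Its spread was narrow, and the log2 fold changes were -0.12 over wildtype (SE 0.095, 95% interval -0.32 to 0.09, edgeR adjusted p = 0.509) and -0.22 over Myc (SE 0.11, adjusted p = 0.404).

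**Figure D2:**
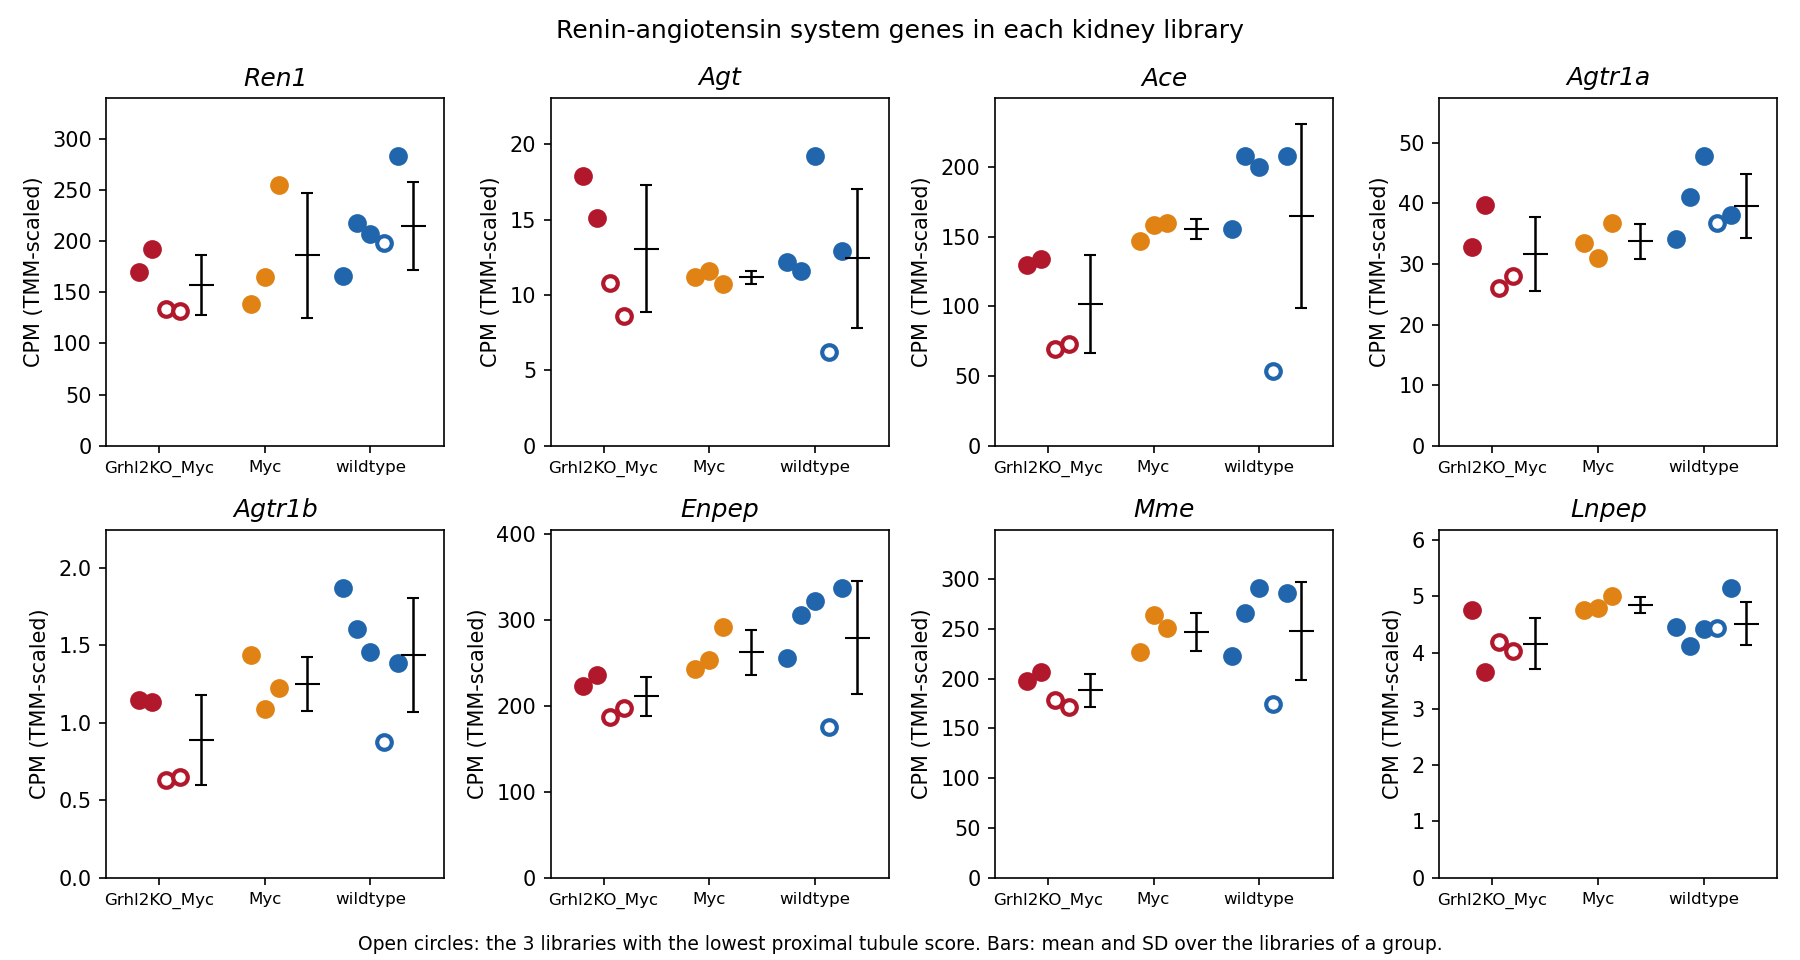
CPM of each of the 8 genes in the 12 libraries, grouped as Grhl2KO_Myc, Myc and wildtype, with the mean and SD of each group beside the points. Open circles mark the 3 libraries with few proximal tubule transcripts, which are the 3 lowest for Ace (53.4 to 73.2 CPM), Agtr1b, Enpep and Mme.

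Against Myc kidneys, the comparison in which both groups are labelled as overexpressing Myc, 0 of the 8 genes were called, where 0.842% of all genes were, and DESeq2 and limma-voom also called 0. At an unadjusted p under 0.05 there was 1 gene, Mme, where 13.3% of all genes were. All Grhl2KO_Myc libraries lay below all Myc libraries for Ace, Enpep and Mme, 3 of the 8, where 7.89% of all genes were separated in that direction. The median log2 fold change over the 8 was -0.28, against 0.00 over all genes, with 7 of 8 below 0, as were 49.5% of all genes.

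Between Myc and wildtype kidneys 0 of the 8 were called, where 0.00421% of all genes were, and 0 had an unadjusted p under 0.05, where 4.62% of all genes did. DESeq2 and limma-voom called 0 here as well. Log2 fold changes ran from -0.23 for Agtr1a to 0.10 for Lnpep with a median of -0.12, and every 95% interval spanned 0 (edgeR adjusted p = 0.999 for each). For Ace the interval of -0.87 to 0.70 still holds differences as large as that of Grhl2KO_Myc over wildtype. The comparisons share groups, so their values are not independent of each other.

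**Figure D3:**
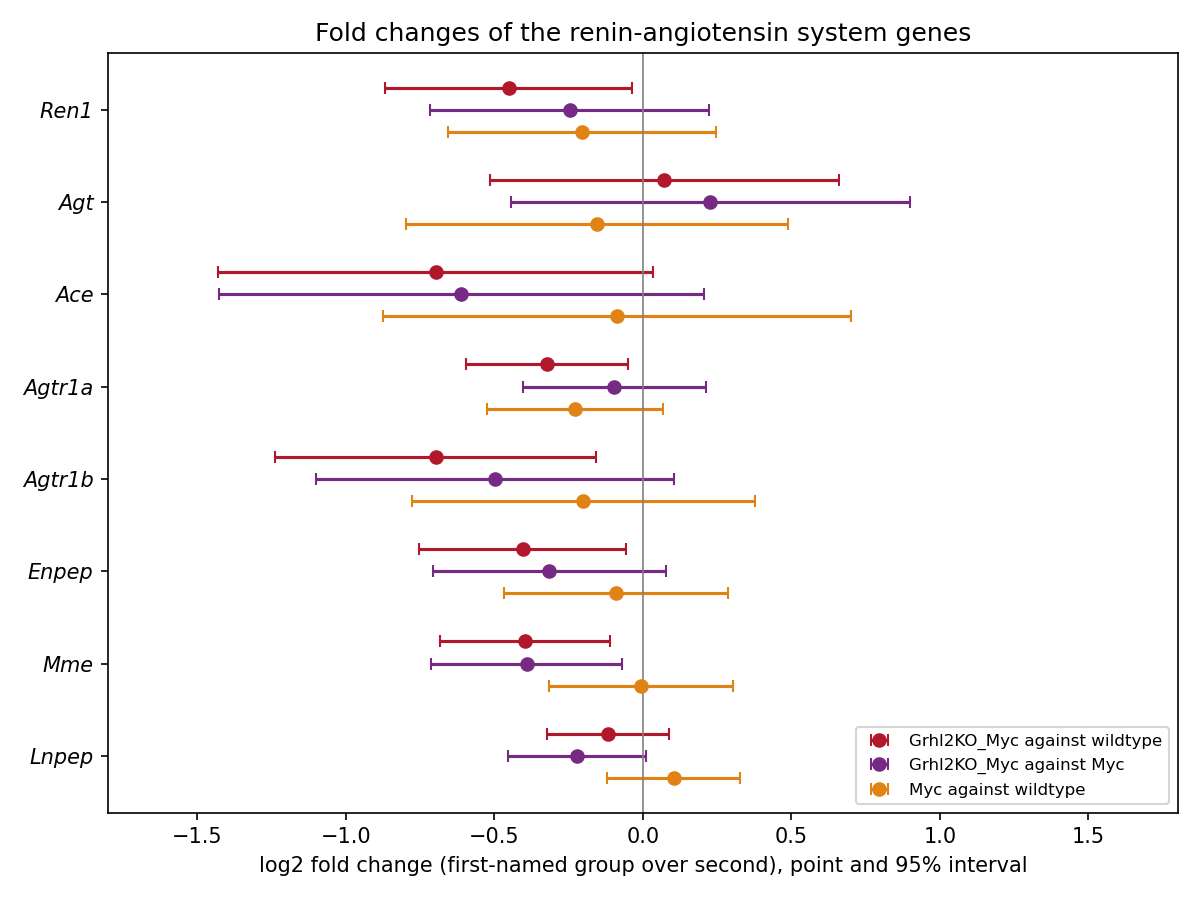
Log2 fold change of the 8 genes in 3 comparisons (Grhl2KO_Myc over wildtype, Grhl2KO_Myc over Myc, Myc over wildtype), points with 95% intervals. Agt lies above 0 in both comparisons of Grhl2KO_Myc (0.07 and 0.23) and the other 7 genes below it.

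Ace, Agtr1b, Enpep and Mme were lowest in the 3 libraries with the least proximal tubule RNA, each of which lay below all other 9. The 3 libraries were set apart by marker levels in these same data, and the share of all genes split in this way was not computed. The split is therefore a description only. Ace was at 53.4 to 73.2 CPM in the 3 and 130 to 208 CPM in the 9. Enpep was at 175 to 198 CPM in those 3 and 223 to 337 CPM in the 9, and Mme at 171 to 178 CPM in the 3 and 197 to 291 CPM in the 9. By group, the 20 S1 and S2 markers summed to 1920.2 to 4911.8 CPM in Grhl2KO_Myc, 3787.8 to 5435.5 CPM in Myc and 1912.2 to 6448.5 CPM in wildtype libraries. All 20 had a log2 fold change below 0 for Grhl2KO_Myc over wildtype, with a median of -0.57, and 2 of them were called lower. Of all genes, 51.5% were below 0 and 2.61% were called lower.

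Without the 3 libraries, 2 Grhl2KO_Myc and 4 wildtype libraries were compared in a fit with 9 libraries, and 3 of the 8 genes were called lower, where 4.61% of all genes were. These were Ace (log2 fold change -0.55, edgeR adjusted p = 0.013), Enpep (-0.42, adjusted p = 0.0392) and Mme (-0.40, adjusted p = 0.0353). Without wildtype 4 alone, 4 of the 8 were called lower, where 6.97% of all genes were: Ace (-0.92, adjusted p = 0.0103), Enpep (-0.53, adjusted p = 0.00442), Mme (-0.50, adjusted p = 0.00374) and Agtr1b (-0.83, adjusted p = 0.0252). This fit keeps Grhl2KO_Myc 3 and 4, so libraries with few proximal tubule transcripts remain in Grhl2KO_Myc but not in wildtype. With all 12 libraries and the proximal tubule score as a covariate, the log2 fold changes were -0.13 for Ace, -0.15 for Enpep and -0.20 for Mme, with edgeR adjusted p of 0.591, 0.228 and 0.0653, and 0 of the 8 were called, where 4.14% of all genes were called lower.

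Over the other 9 libraries the levels of Ren1, Ace, Enpep and Mme correlated with the proximal tubule score, the mean log2 CPM of the 20 markers. Pearson's r was 0.753 for Ren1, 0.777 for Ace, 0.815 for Enpep and 0.795 for Mme (exact permutation, two-sided p = 0.021, 0.0173, 0.0115 and 0.0142, each 0.0419 after adjustment over the 8 relations computed). Spearman's rho was 0.733, 0.767, 0.75 and 0.833 for the same genes (exact permutation p = 0.0311, 0.0214, 0.0255 and 0.00827, each 0.0622 after adjustment), so the rank correlations did not pass. Leaving out wildtype 1 and 3, the 2 libraries farthest from the median score, gave r of 0.836, 0.853, 0.879 and 0.783. For Agt, Agtr1a, Agtr1b and Lnpep r was 0.217, 0.597, -0.126 and 0.238, with adjusted exact permutation p of 0.645, 0.142, 0.746 and 0.645. Each group holds under 6 of these libraries, so no r is given within a group, and the pooled values also carry any difference between groups.

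**Figure D4:**
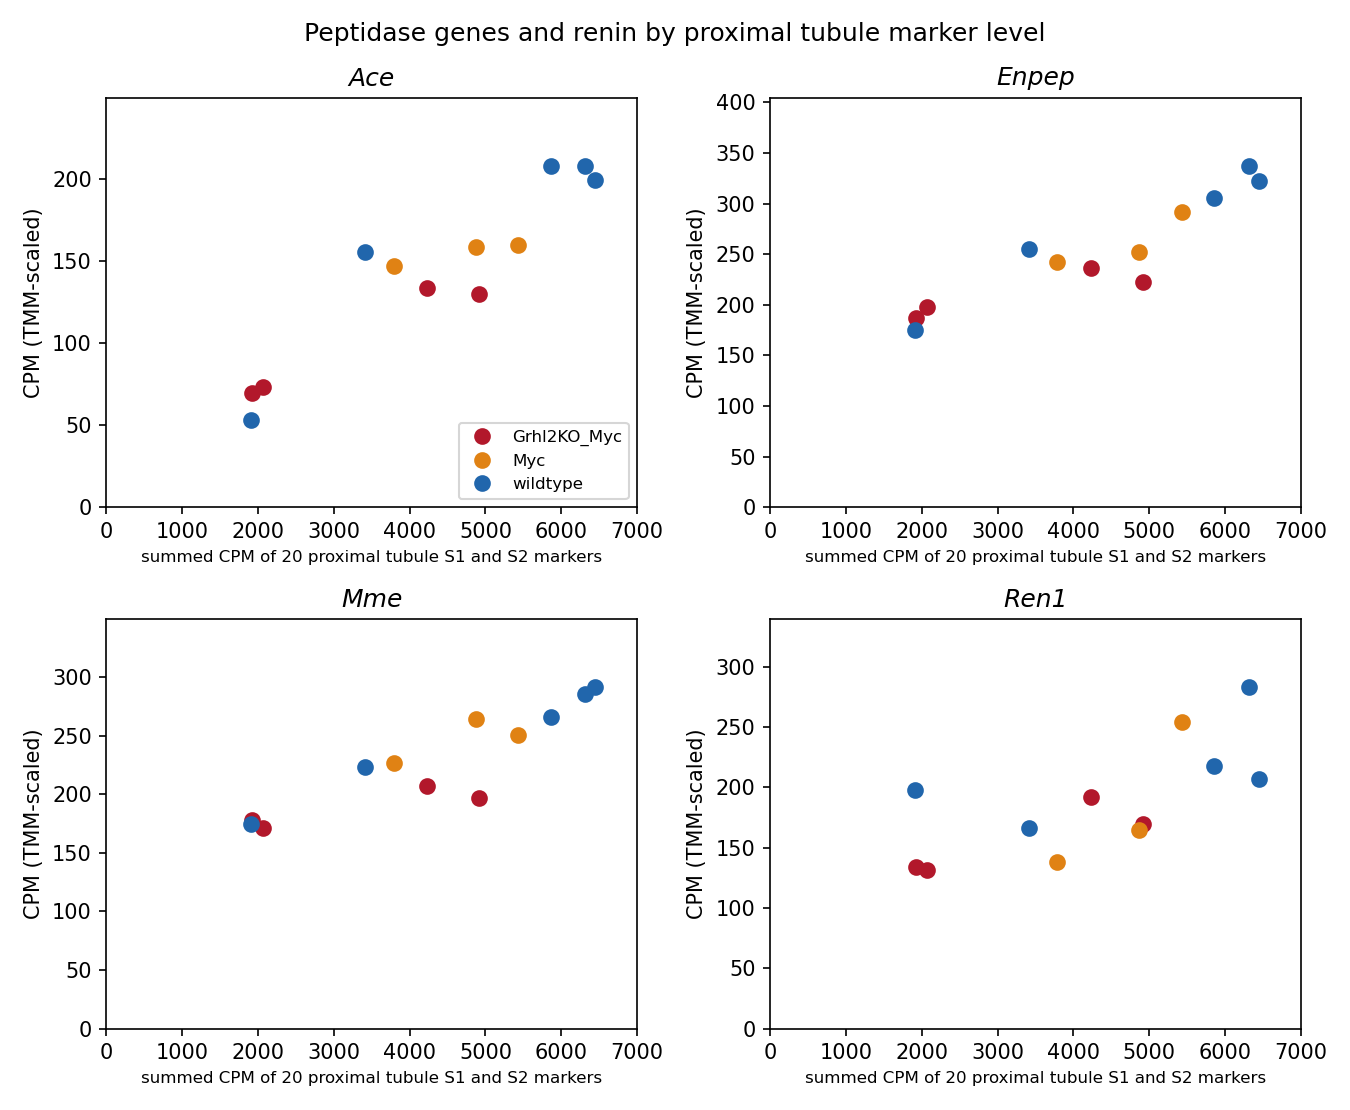
CPM of Ace, Enpep, Mme and Ren1 against the summed CPM of 20 proximal tubule S1 and S2 markers, 1 point per library, coloured by group. The 3 libraries at the left (1912.2 to 2070.0 CPM of markers) have the lowest Ace, Enpep and Mme, while Ren1 in them spans 131 to 198 CPM.

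Among the 8 genes, the closest pairs over the 12 libraries were Enpep and Mme (Pearson r of log2 CPM 0.953), Ace and Enpep (0.948) and Ace and Mme (0.918), and Agt and Lnpep shared little with Ren1 (0.172 and 0.372). These values, like those that follow, are descriptions over points that share the 3 libraries with few proximal tubule transcripts. The gene most like Ace was Nnt, the mitochondrial transhydrogenase (0.998), followed by the antisense Gm11651 (0.992) and Itpr1 (0.989). Ren1 was most like Alas1, the first enzyme of heme synthesis (0.949), then Ftl1 (0.929) and Ly86 (0.917). Enpep was most like Glb1l (0.980), 0610005C13Rik (0.979) and Myo15b (0.978), and Mme was most like Elovl7 (0.984), Wdfy3 (0.966) and Itga1 (0.964). Agt was closest to Kifc2 (0.936), Dip2c (0.919) and Lmbr1 (0.902). Agtr1a was closest to Abhd17c (0.974), Coro6 (0.952) and Plod2 (0.942), and Agtr1b to Elac1 (0.969), Kng2 (0.952) and Gria1 (0.952). Lnpep had the weakest partners in Gm14412 (0.880), Zfp677 (0.859) and Smtnl2 (0.851).

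Beyond the 8 genes, 3 soluble peptidases that cut angiotensin peptides were higher in Grhl2KO_Myc than in wildtype kidneys. A list of 29 further renin-angiotensin and kinin genes has 28 in the table and 24 tested, of which 3 were called higher and 0 lower, where 4.06% and 2.61% of all genes were. The list's median log2 fold change was 0.00, with 12 genes above and 12 below 0. Without wildtype 4, edgeR called 3 higher and 4 lower, where 2125 and 1653 of 23723 genes were. The 4 included the kininogens Kng1 (-1.32, adjusted p = 0.0495) and Kng2 (-0.70, adjusted p = 0.00985) and Agtrap (-0.29, adjusted p = 0.038). With all libraries Kng1 ranged over 8.29 to 36.9 CPM in wildtype with a median of 9.96 CPM, and over 4.82 to 8.84 CPM in Grhl2KO_Myc. Its wildtype mean of 15.1 CPM thus lies well above the median, and the groups overlap. Without the 3 libraries with few proximal tubule transcripts edgeR called 0 higher and 1 lower, Kng2 (-0.41, adjusted p = 0.0141), where 4.61% of all genes were called lower. Thop1, thimet oligopeptidase, forms angiotensin 1-7 and was at 47.2 ± 5.85 CPM in Grhl2KO_Myc, 41.2 ± 2.12 CPM in Myc and 34.8 ± 2.56 CPM in wildtype (log2 fold change over wildtype 0.44, SE 0.081, edgeR adjusted p = 0.00801). Its 4 Grhl2KO_Myc libraries held 42.2, 42.3, 51.5 and 53.1 CPM, against 36.0, 35.2, 32.1, 32.4 and 38.2 CPM in the 5 wildtype libraries. Nln, neurolysin, was at 31.3 ± 1.27 CPM in Grhl2KO_Myc, 29.1 ± 1.42 CPM in Myc and 26.1 ± 1.94 CPM in wildtype (0.26, SE 0.061, adjusted p = 0.0251). Prep, prolyl endopeptidase, was at 54.9 ± 4.08 CPM in Grhl2KO_Myc, 49.0 ± 2.77 CPM in Myc and 45.8 ± 3.10 CPM in wildtype (0.26, SE 0.064, adjusted p = 0.0312). For each of the 3, all Grhl2KO_Myc libraries lay above all wildtype libraries, as for 1345 of the 23742 genes tested. The 3 were picked as called, so this split is not separate evidence. The calls of Nln and Prep were lost without Grhl2KO_Myc 1, 3 or 4 or wildtype 1 or 2 (adjusted p up to 0.0791 for Nln and 0.0978 for Prep), and that of Prep also without wildtype 3. Without the 3 libraries with few proximal tubule transcripts none of the 3 was called, with log2 fold changes of 0.25 for Thop1, 0.22 for Nln and 0.15 for Prep and adjusted p of 0.0506, 0.0851 and 0.148.

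Anpep, Agtr2, Mas1, Atp6ap2, Prcp and Agtrap, which also bear on angiotensin peptides or their receptors, were not called between Grhl2KO_Myc and wildtype with all libraries. Anpep, aminopeptidase N of the brush border, was at 411 ± 108 CPM in Grhl2KO_Myc, 472 ± 172 CPM in Myc and 505 ± 132 CPM in wildtype (log2 fold change over wildtype -0.30, edgeR adjusted p = 0.535). Agtr2 was at 47.6 ± 9.95 CPM in Grhl2KO_Myc, 41.5 ± 5.52 CPM in Myc and 47.5 ± 12.8 CPM in wildtype (0.00, adjusted p = 0.995). Mas1, the receptor of angiotensin 1-7, was at most 0.678 CPM in the 12 libraries (-0.29, adjusted p = 0.641). Atp6ap2, the prorenin receptor, differed by -0.01 (SE 0.066, adjusted p = 0.955), Prcp, which cleaves angiotensin II, by 0.01 (SE 0.068, adjusted p = 0.948) and Agtrap, which binds the AT1 receptor, by -0.21 (SE 0.11, adjusted p = 0.299). Mrgprd, Ace3, Ctsg and Bdkrb1 had at most 2, 6, 7 and 11 counts in a library and were not tested.

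Genes that set renin release and transcription included 4 that were lower in Grhl2KO_Myc than in wildtype kidneys and 0 that were higher, among 40 tested, where 2.61% and 4.06% of all genes were. The median log2 fold change of the 40 was -0.08, with 27 below 0. Pde1c, a phosphodiesterase of cyclic nucleotides, was at 2.25, 2.43, 2.28 and 2.18 CPM in Grhl2KO_Myc, 3.75, 3.14 and 2.94 CPM in Myc and 3.38, 3.87, 4.20, 3.85 and 3.33 CPM in wildtype libraries. All 4 Grhl2KO_Myc libraries lay below the other 8. Of the 23742 genes tested, 904 were so separated from wildtype and 7.89% from Myc. The log2 fold change of Pde1c was -0.71 over wildtype (SE 0.11, edgeR adjusted p = 0.00246) and -0.52 over Myc (SE 0.12, adjusted p = 0.0711). Pde3a, a phosphodiesterase that breaks down cyclic AMP in renin cells, was at 56.4 ± 4.90 CPM in Grhl2KO_Myc, 65.0 ± 3.43 CPM in Myc and 73.9 ± 5.96 CPM in wildtype (-0.39, SE 0.072, adjusted p = 0.00832), and without the 3 libraries it was at -0.31 and not called (adjusted p = 0.053). Hoxd10, a homeobox factor known from studies of the mouse renin promoter, was at 56.4 ± 1.51 CPM in Grhl2KO_Myc, 63.4 ± 5.64 CPM in Myc and 67.8 ± 6.14 CPM in wildtype (-0.26, SE 0.070, adjusted p = 0.0427). That call was lost when any single library other than Myc 3, wildtype 4 or wildtype 5 was left out (adjusted p up to 0.111).

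Casr, the calcium-sensing receptor, was at 5.82, 6.72, 5.55 and 5.22 CPM in Grhl2KO_Myc, 11.2, 13.2 and 9.59 CPM in Myc and 12.5, 11.9, 11.8, 4.94 and 13.3 CPM in wildtype libraries. Wildtype 4 lay below all Grhl2KO_Myc libraries, and the other 7 Myc and wildtype libraries lay above them. The log2 fold change was -0.90 over wildtype (SE 0.23, edgeR adjusted p = 0.0394) and -0.96 over Myc (SE 0.26, adjusted p = 0.125), and without wildtype 4 it was -1.09 over wildtype (adjusted p = 0.000162) and was called over Myc too (adjusted p = 0.00119). Over wildtype the call of Casr was lost when any single library other than Myc 3 or wildtype 4 was left out (adjusted p up to 0.111). Besides renin cells, Casr is made in the thick ascending limb, whose 10 markers summed to 923.8 to 1232.0 CPM in Grhl2KO_Myc, 1290.1 to 1570.9 CPM in Myc and 1002.1 to 1657.6 CPM in wildtype libraries. The part of that segment in the Casr value was not tested. In Grhl2KO_Myc against Myc and in Myc against wildtype, 0 genes of either list were called by edgeR. At an unadjusted p under 0.05 there were 5 of 24 and 5 of 40 for Grhl2KO_Myc against Myc, where 13.3% of all genes were. For Myc against wildtype there were 2 of 24 and 4 of 40, where 4.62% of all genes were. DESeq2 called 2 of the 40, Casr and Pde1c, against Myc, and 766 genes over the whole table.

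Of the 7 called genes, 5 have promoter windows in the RefSeq table, and Nln and Hoxd10 held the E-box CACGTG, as did 2187 of the 27025 genes in it. The motif is shown in capitals because Myc binds it and both Grhl2KO_Myc and Myc kidneys are labelled as overexpressing Myc. Nln is at chr13:104109565-104109864 on the minus strand and Hoxd10 at chr2:74691641-74691940 on the plus strand (GRCm38.p6).
Nln: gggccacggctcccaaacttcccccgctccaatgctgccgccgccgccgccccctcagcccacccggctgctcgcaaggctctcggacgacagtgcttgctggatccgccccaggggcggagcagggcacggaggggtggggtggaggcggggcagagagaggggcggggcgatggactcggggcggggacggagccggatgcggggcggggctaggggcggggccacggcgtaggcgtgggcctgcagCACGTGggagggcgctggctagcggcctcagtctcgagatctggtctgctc
Hoxd10: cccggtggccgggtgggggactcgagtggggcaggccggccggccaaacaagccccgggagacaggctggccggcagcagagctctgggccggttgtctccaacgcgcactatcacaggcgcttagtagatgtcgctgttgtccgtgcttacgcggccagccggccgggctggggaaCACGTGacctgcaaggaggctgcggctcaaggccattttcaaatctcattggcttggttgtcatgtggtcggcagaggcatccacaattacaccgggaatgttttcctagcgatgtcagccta
In Nln the match begins 1 base before the start and runs across it, and in Hoxd10 it lies 73 to 68 bases before the start. Nln was higher and Hoxd10 lower in Grhl2KO_Myc than in wildtype kidneys, and neither was called between Myc and wildtype. Whether Myc acts on either gene through its match was not tested. Thop1, Casr and Pde1c held neither this motif nor AACCNGTT.

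**Figure D5:**
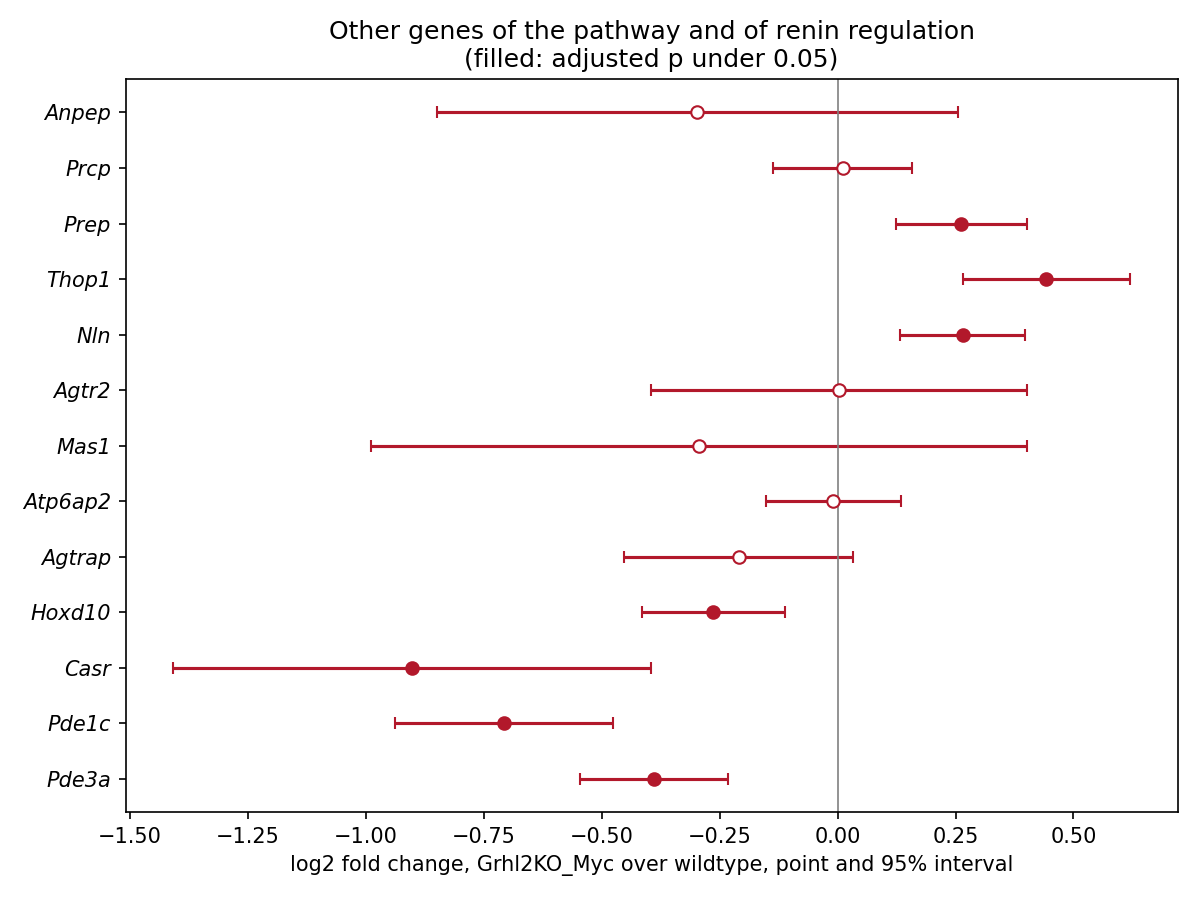
Log2 fold change of Grhl2KO_Myc over wildtype for genes of angiotensin peptide handling and for 4 genes of renin release and transcription, points with 95% intervals, filled where called. Thop1, Nln and Prep lie above 0 (0.44, 0.26 and 0.26) and Hoxd10, Casr, Pde1c and Pde3a below it.

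Markers of cells that make or carry these genes were compared as well. The 11 markers of juxtaglomerular and renin-lineage cells summed to 764.8 to 900.7 CPM in Grhl2KO_Myc, 837.5 to 883.0 CPM in Myc and 872.7 to 994.5 CPM in wildtype libraries, with 1 of 11 called lower over wildtype. The 18 markers of mesangium, pericytes and vascular smooth muscle summed to 1735.3 to 2141.0 CPM in Grhl2KO_Myc, 1965.6 to 2051.5 CPM in Myc and 1648.3 to 2286.1 CPM in wildtype, with 2 called lower. Over wildtype, 8 of the 11 markers had a log2 fold change below 0 and 3 above, and 11 of the 18 below and 7 above. Rgs5 (mean 265 CPM), Pdgfrb (173 CPM) and Cspg4 (65.0 CPM) are in both lists, so these sums are not separate. All 20 endothelial and all 20 podocyte markers had log2 fold changes below 0 over wildtype, and 5 and 4 of them were called lower. Over wildtype, 51.5% of all genes were below 0 and 2.61% were called lower. Endothelial markers summed to 1648.3 to 1733.6 CPM in Grhl2KO_Myc, 1697.5 to 1861.1 CPM in Myc and 1873.7 to 2052.2 CPM in wildtype. Podocyte markers summed to 1561.1 to 1648.8 CPM in Grhl2KO_Myc, 1672.2 to 1898.1 CPM in Myc and 1864.7 to 2033.9 CPM in wildtype. Both sums were lower in every Grhl2KO_Myc library than in any wildtype library. Taken singly, 904 of the 23742 genes were so separated, but a sum over 20 genes is not the same measure as a single gene. Podxl (mean 373 CPM) is the highest gene of both lists, so the sums are not independent. The part of endothelium and podocytes in the values of Ren1, Ace and the AT1 receptors was not tested.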

How the data were processed

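The deposited table holds raw, whole-number counts for each gene, which the authors did not normalize, beside exon widths. Libraries were made with the TruSeq RNA kit v2, which does not mark strand, per the labels' protocols. Reads were aligned with HISAT2 to mm10, per the submitters' processing notes; the labels state neither counter nor annotation. From these counts, edgeR 4.0.16 in R 4.3.3 fitted all 12 libraries at once with TMM scaling, the default expression filter, a quasi-likelihood test and Benjamini-Hochberg adjustment, with a threshold of 0.05. No gene lacked a name and 0 columns lay outside the series. Groups came from the genotype labels. Even the 2 most similar replicates differed (chi-square over its degrees of freedom 13.5), so each library counts once.

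Of the gene symbols, 90.6% matched GENCODE M21, the source of coordinates, and promoters came from RefSeq GRCm38.p6. The 8 genes, the gene lists and the tests were chosen with earlier results of these data known. Named besides them are called genes of the 2 pathway lists, genes of angiotensin peptide handling and the 3 genes most like each of the 8 (Pearson r of log2 CPM with a prior count of 2, genes of at least 1 CPM). The rule also takes 1 gene that is not reported here, and Kng1 and Kng2 were named as list genes after their values were seen. Alternatives were RLE and upper-quartile scaling, other filters, DESeq2 1.42.0, limma-voom (limma 3.58.1), only the groups compared, a replicate block, a term for Y-linked transcripts, a proximal tubule covariate, and leaving out libraries. The edgeR script was tested on simulated data first.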

Additional observations from a re-analysis of the deposited data

Results flagged for a closer look

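Of 30 groups of 4 or 5 values examined for a sample far from the others, 1 was singled out, while chance picks about 1 in 20. Casr was at 4.94 CPM in wildtype replicate 4, the nearest other wildtype library was at 11.8 CPM, and this gap was 0.817 of the whole range of the group, above the critical value of 0.71 for 5 samples. The same library had the lowest summed proximal tubule markers of the 12 (1912.2 CPM). Its thick ascending limb markers summed to 1002.1 CPM, the lowest of the wildtype libraries. Whether its tubule content bears on Casr was not tested.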

How the results depend on the processing

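Over 23 alternatives, 527 of 552 values of the 8 genes kept their direction and their side of the threshold, 9 passed it and 16 changed sign. Of the 8 genes, DESeq2 called 1 and the fit without the 3 libraries with few proximal tubule transcripts called 3 for Grhl2KO_Myc against wildtype, and leaving out single libraries gave 0 to 4. In the other 2 comparisons the count was 0 in every alternative. Agt over wildtype was -0.12 without Grhl2KO_Myc 1, -0.0033 without Grhl2KO_Myc 2 and -0.098 without wildtype 4, within a range of -0.12 to 0.28 over single libraries left out. Over Myc, Ren1 ranged from -0.42 to 0.0426, and Agtr1a was 0.0306 with the proximal tubule covariate and 0.0967 without the 3 libraries. For Myc against wildtype, Agt ranged from -0.32 to 0.0564 (without wildtype 3), Ace from -0.31 to 0.00979 (0.00842 without wildtype 2, 0.0665 with limma-voom) and Mme from -0.11 to 0.0565 (0.0529 without Myc 1, 0.0170 and 0.0487 without wildtype 2 and 5). Mme was 0.00133 with no filter and 0.0166 with limma-voom, and Casr was -0.126 without the 3 libraries, -0.0644 without Myc 2 and -0.125 without wildtype 4, within -0.125 to 0.170 over single libraries left out. The cause of these changes was not tested.

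For the other 7 called genes, 427 of 483 values held, 47 fell short of the threshold, 6 passed it and 3 changed sign. Pde1c over wildtype was called in all 23 alternatives, Thop1 and Pde3a in all but the fit without the 3 libraries. Casr was not called over wildtype in 15 alternatives (adjusted p up to 0.111), Hoxd10 in 14 (up to 0.12), Prep in 9 (up to 0.148) and Nln in 7 (up to 0.0851). The list of 24 gave 1 call with only the groups compared or without the 3 libraries, and 1 to 7 without single libraries. The list of 40 gave 2 with only the groups compared or the Y-linked term, 8 with the tubule covariate and 2 to 7 without single libraries. Against Myc it gave 2 with DESeq2, 1 with only the groups compared, 1 without the 3 libraries and 0 to 2 without single libraries.

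Over all genes, the 1584 calls of Grhl2KO_Myc against wildtype became 2648 with DESeq2, 995 with only the groups compared, 998 with the Y-linked term and 750 to 3778 without single libraries. The 200 calls against Myc became 766 with DESeq2, 318 without the 3 libraries and 70 to 703 without single libraries. The 1 call of Myc against wildtype became 42 with DESeq2, 0 with limma-voom, with only the groups compared and with the Y-linked term, and 0 to 6 without single libraries. In the labels, same-numbered libraries share only a number. The median correlation of their deviations was 0.011 over 10 pairs, with 1 pair over 0.1 (Grhl2KO_Myc 4 and wildtype 4, 0.23). Over the 37 pairs with different numbers it was -0.023, with 8 over 0.1. So few pairs cannot decide whether a number marks a shared origin. With the replicate block 0 of the 8 genes were called, the whole-table calls were 993, 88 and 0, and Casr and Prep were not called over wildtype (adjusted p = 0.0632 and 0.0547). Agtr1b, near 1 CPM, is the least deeply counted of the 8.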
